A study of Mus musculus with 18 samples.

Results

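The genes described here are 10 markers of the foamy, TREM2-high macrophage of atherosclerotic lesions, namely Trem2, Tyrobp, Gpnmb, Spp1, Cd9, Fabp4, Fabp5, Lgals3, Cd5l and Atp6v0d2. They were chosen by symbol, and all 10 were found among the 23337 genes of the count table. All 10 also passed the filter on low counts, which left 17143 genes to test. RNA-seq had been done on live CD45+ leukocytes, sorted by flow cytometry from digested aortas and carotids of C57BL/6 mice of both sexes. Every mouse was Apoe-/- and carried the reporters Cx3cr1GFP and Cd11cYFP, was aged 7 months and had been on a Western diet for 5 months. YFP cells had YFP alone (n = 5), DP cells had both reporters (n = 4), GFP cells had GFP alone (n = 6), and DN cells had neither (n = 3). Cd11c is the product of Itgax, an integrin gene of dendritic cells and many tissue macrophages, and Cx3cr1 encodes the receptor for fractalkine on monocytes and some macrophages. The gates thus rest on reporters and not on macrophage markers, and no Apoe-sufficient mice or mice on plain chow were among the samples.

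Foamy macrophages form when macrophages of the artery wall take up lipoproteins and store their cholesterol. TREM2 is a surface receptor for lipids and lipoproteins that signals through the adaptor TYROBP, also called DAP12. Cells that turn on this receptor in lesions, in obese fat and in the diseased brain share a set of transcripts for lipid handling, lysosomes and matrix proteins, to which these 10 genes belong.

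The libraries differed in ways that bear on these genes. Total counts ran between 9790946 and 27742113 per library except in YFP replicate 6, which held 289166. The 6 libraries numbered 1 or 2 had 19245 to 21972 detected genes and the 12 numbered 3 to 6 had 13150 to 18961. For 5 libraries, the RNA of Cx3cr1 and Itgax, the genes of the proteins after which the reporters are named, went against the sort labels. The libraries labelled DP replicates 4 and 5 had 9.43 and 0.427 CPM of Cx3cr1 (CPM are counts scaled to library size), and 38.6 and 47.8 CPM of Itgax. YFP replicate 6 had 104 CPM of Cx3cr1 and 89.6 CPM of Itgax, from only 35 and 30 counts. The libraries labelled DN replicates 3 and 6 had at least 134 and 297 CPM of these genes. In GFP libraries Cx3cr1 lay between 80.9 and 165 CPM and Itgax between 107 and 191 CPM. Apoe, which is inactivated in all of these mice, had 208 CPM in YFP replicate 5 and 1.81 to 57.0 CPM in the other 17 libraries, and no Apoe-sufficient sample was available to set these values against. CPM values were scaled by TMM, a correction for RNA composition, whose factor was lowest in YFP replicate 5 (0.445) and highest in DN replicate 1 (1.75). Whether the replicates are separate mice is not stated in the labels, so the p-values reflect spread among these libraries alone, part of which may be technical.

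Gpnmb, Atp6v0d2 and Cd5l had the largest differences between YFP cells and the GFP and DP cells. All 3 were higher in each of the 5 YFP libraries than in any of the 4 DP libraries, and their fitted levels were about 2.38 to 2.84 log2 units higher in YFP than in GFP cells. For Atp6v0d2 the value of YFP replicate 6 rests on 37 counts, so its place above the DP libraries is within counting error. Trem2 itself and its adaptor Tyrobp had smaller fitted differences, of 0.93 and 0.97, and both disappeared without YFP replicate 5. No member passed an adjusted p of 0.05 in any comparison by edgeR's quasi-likelihood test with Benjamini-Hochberg adjustment over all 17143 genes. The plot of levels by library shows all values. The CPM of YFP replicate 5 depend on its TMM factor. With total-count scaling, YFP replicate 4 and not replicate 5 was the highest YFP library for Gpnmb, Spp1, Cd5l and Atp6v0d2, while Trem2 had 995 CPM, Tyrobp 2563 CPM and Lgals3 14144 CPM in YFP replicate 5.

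**Figure D1:**
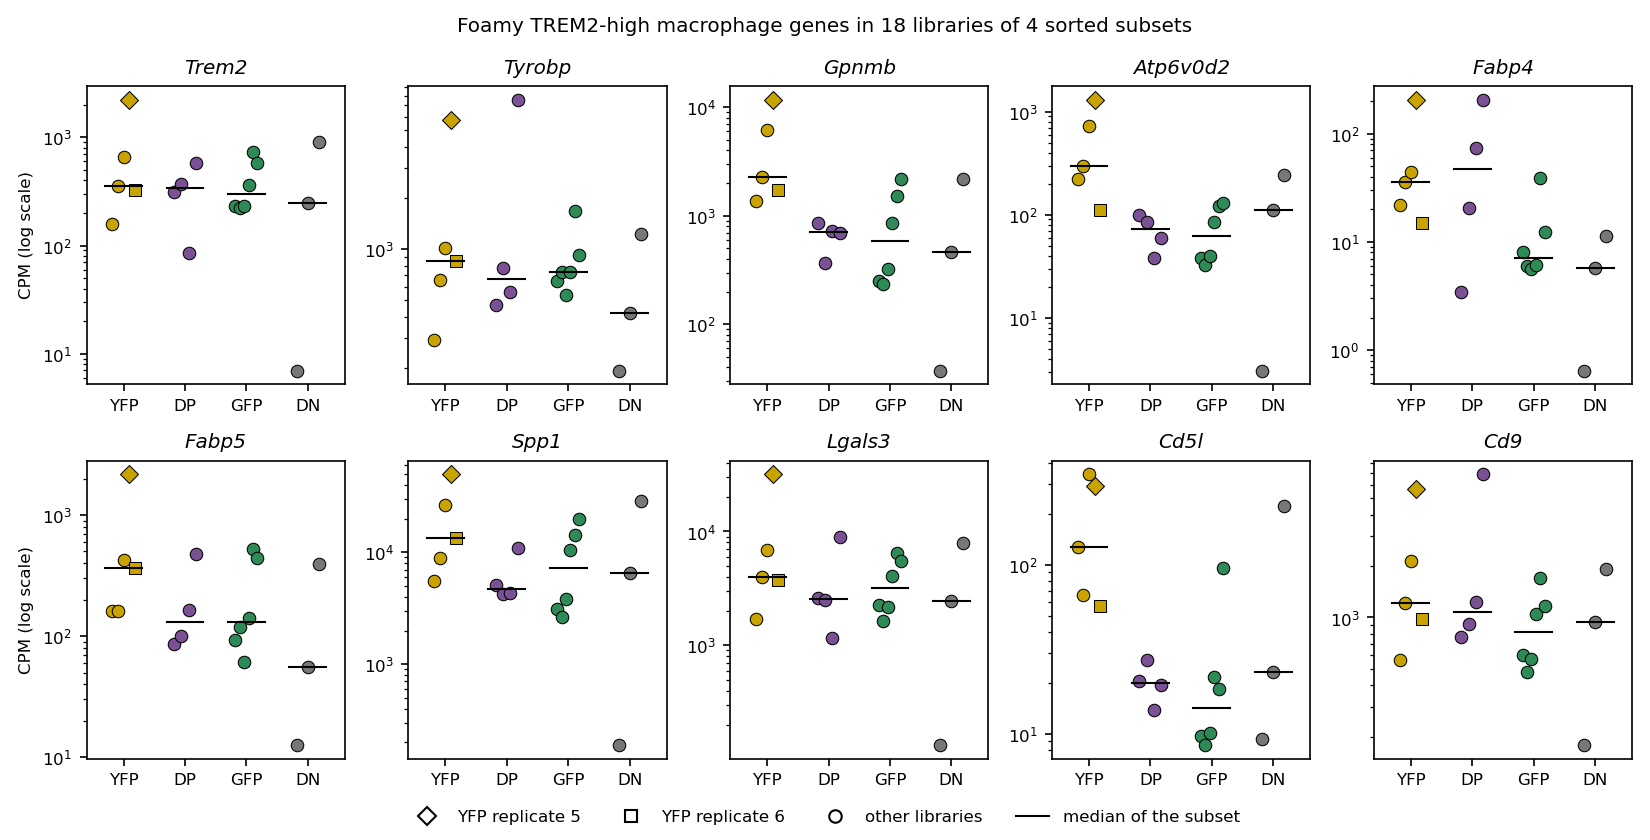
Level of each gene in CPM (vertical axis, log scale) in every library of the YFP, DP, GFP and DN subsets, with 1 point per library and a line at the subset's median. YFP replicate 5 (diamond) is the highest YFP library for 9 of the 10 genes (6 of 10 with total-count scaling, without TMM), and DN replicate 1 is the lowest of all libraries for 9 of them under both scalings.

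Trem2 encodes the lipid-sensing receptor (chromosome 17, 48346401 to 48354147, plus strand, mm10). It had 158, 356, 661, 2238 and 328 CPM in YFP replicates 1, 3, 4, 5 and 6. In DP replicates 1, 2, 4 and 5 it had 311, 373, 85.4 and 585 CPM. Among GFP libraries the range was 222 to 725 CPM with a median of 298 CPM, and DN replicates 1, 3 and 6 had 6.98, 246 and 902 CPM. YFP replicate 5 stood alone above every other library, DN replicate 1 stood alone below, and the remaining values of all subsets overlapped. YFP over GFP gave a log2 fold change of 0.93 ± 0.74 (SE), with an adjusted p of 0.963 by edgeR's quasi-likelihood test. Without YFP replicate 5 it was -0.01 ± 0.72.

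Tyrobp, the gene of the signalling adaptor (chromosome 7, 30413760 to 30417585, plus strand), followed the same outline with a second high library. It had 292, 659.7, 1016, 5764 and 854 CPM in the YFP libraries, and 471, 772, 557 and 7584 CPM in the DP libraries. The GFP libraries held 539 to 1680.3 CPM with a median of 736 CPM, and the DN libraries held 193, 422 and 1232 CPM. YFP replicate 5 and DP replicate 5 were several times above all others, and the subsets overlapped without them. Between YFP and GFP cells the log2 fold change was 0.97 ± 0.73 (edgeR's adjusted p = 0.946), and it was -0.29 ± 0.72 without YFP replicate 5. TYROBP also serves other receptors of macrophages, neutrophils and NK cells, so its transcript is not particular to TREM2.

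Gpnmb encodes a membrane glycoprotein of lysosomes and melanosomes that marks lipid-loaded macrophages (chromosome 6, 49036546 to 49070929, plus strand). Its level was 1379, 2290.4, 6122, 11780.2 and 1729 CPM in the 5 YFP libraries. The DP libraries had 855, 368, 719 and 690.3 CPM. GFP libraries ranged from 236 to 2191 CPM with a median of 588 CPM, and DN libraries had 37.5, 468 and 2181 CPM. Every YFP library was above every DP library, while GFP replicates 5 and 6 and DN replicate 6 reached into the YFP range. For YFP over GFP the log2 fold change was 2.38 ± 0.75 (edgeR's adjusted p = 0.390) and 1.79 ± 0.72 without YFP replicate 5.

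Atp6v0d2 encodes an inducible subunit of the V-ATPase, the proton pump that acidifies lysosomes, and is a known gene of osteoclasts and of stimulated macrophages (chromosome 4, 19876841 to 19922605, minus strand). It had 222, 294, 727, 1310.0 and 110.5 CPM in YFP libraries and 98.7, 85.3, 38.0 and 60.1 CPM in DP libraries. Levels ran from 32.3 to 131 CPM in GFP libraries, with a median of 62.4 CPM, and DN libraries had 3.08, 111 and 240.2 CPM. YFP replicates 1, 3, 4 and 5 were above all GFP and DP libraries, and only the shallow YFP replicate 6 lay within the GFP range. That value rests on 37 counts. Its 95% Poisson interval for counting error, 77.8 to 152 CPM, covers the highest DP and GFP libraries. With total-count scaling YFP replicate 6 had 128 CPM, just above the highest GFP library at 120.1 CPM. This was the largest YFP over GFP difference among the 10 genes, at 2.84 ± 0.72 on the log2 scale (edgeR's adjusted p = 0.174) and 2.27 ± 0.67 without YFP replicate 5.

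Cd9, a tetraspanin of the plasma membrane and of extracellular vesicles (chromosome 6, 125460266 to 125494791, minus strand), had 565, 1208, 2137, 5696 and 982 CPM in YFP libraries. In DP libraries it had 765, 916, 1232 and 6913 CPM. The GFP libraries spanned 477 to 1695 CPM with a median of 827 CPM, and the DN libraries had 178, 937 and 1929 CPM. The high values were again YFP replicate 5 and DP replicate 5, and the subsets overlapped. The log2 fold change of YFP over GFP was 1.19 ± 0.65 (edgeR's adjusted p = 0.785) and 0.45 ± 0.66 without YFP replicate 5.

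Among the secreted proteins, Cd5l encodes a scavenger-receptor-like protein of tissue macrophages that is released into blood and is known to protect macrophages from cell death (chromosome 3, 87357881 to 87371073, plus strand). It had 128, 66.4, 343, 292 and 56.7 CPM in YFP libraries, against 20.5, 27.2, 13.8 and 19.3 CPM in DP libraries. GFP libraries ranged from 8.53 to 95.2 CPM with a median of 14.2 CPM, and DN libraries had 9.30, 23.2 and 223 CPM. The YFP and DP libraries did not overlap, and GFP replicate 6 was the single GFP library that reached YFP levels. The log2 fold change of YFP over GFP was 2.71 ± 0.75 (edgeR's adjusted p = 0.267). It was 2.60 ± 0.75 without YFP replicate 5, which makes it the member that this library moved least.

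Spp1, the gene of osteopontin, a phosphoprotein of mineralised and inflamed tissue (chromosome 5, 104435118 to 104441050, plus strand), was the most abundant member. Its level was 5511, 8824, 26552, 49937 and 13407 CPM in YFP libraries and 5100.2, 4267, 4315 and 10907 CPM in DP libraries. In GFP libraries it spanned 2623 to 19924 CPM with a median of 7193 CPM, and DN libraries had 188, 6502 and 28897 CPM. Replicates 4 and 5 of YFP and replicate 6 of DN were highest, and YFP libraries overlapped those of each other subset. With total-count scaling the 4 DP libraries lay between 5345 and 5809 CPM, so the high DP replicate 5 is seen with TMM only. Spp1 alone took 0.812% to 2.37% of the counts of a YFP library, 0.534% to 0.581% of a DP library, 0.347% to 1.83% of a GFP library and 0.0329% to 2.52% of a DN library. The log2 fold change of YFP over GFP was 1.20 ± 0.75 (edgeR's adjusted p = 0.856) and 0.67 ± 0.77 without YFP replicate 5.

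Lgals3 encodes galectin-3, a sugar-binding protein also known as the macrophage antigen Mac-2 (chromosome 14, 47367751 to 47386160, plus strand). It had 1695, 3987, 6845, 31804 and 3711 CPM in YFP libraries and 2595, 2507, 1149.7 and 8981 CPM in DP libraries. GFP libraries ranged from 1627 to 6420.0 CPM with a median of 3157 CPM, and DN libraries had 132, 2439.6 and 7954 CPM. YFP replicate 5 was far above the rest, and its removal brought the log2 fold change of YFP over GFP to 0.20 ± 0.71, against 1.39 ± 0.75 with all libraries (edgeR's adjusted p = 0.779).

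The fatty acid-binding proteins carry lipids in the cytosol. Fabp4, the form of adipocytes and macrophages (chromosome 3, 10204088 to 10208576, minus strand), had 21.8, 35.5, 44.5, 203 and 14.9 CPM in YFP libraries. The value of YFP replicate 6 rests on 5 counts, with a 95% Poisson interval of 4.85 to 34.8 CPM that covers counting error only. DP libraries had 3.41, 20.3, 73.7 and 206 CPM, GFP libraries ranged from 5.65 to 38.7 CPM with a median of 7.11 CPM, and DN libraries had 0.647, 5.72 and 11.2 CPM. All YFP libraries were above all DN libraries, and 5 of the 6 GFP libraries were below all YFP libraries. The exception was GFP replicate 5. The log2 fold change of YFP over GFP was 2.33 ± 0.86 (edgeR's adjusted p = 0.565) and 1.31 ± 0.84 without YFP replicate 5.

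Fabp5, the epidermal form that macrophages also make (chromosome 3, 10012548 to 10016607, plus strand), had 159.6, 162, 428, 2170.2 and 367 CPM in YFP libraries and 86.6, 99.3, 163 and 477 CPM in DP libraries. GFP libraries ranged from 60.9 to 521 CPM with a median of 129 CPM, and DN libraries had 12.5, 55.6 and 396 CPM. The subsets overlapped, with YFP replicate 5 alone above them. For YFP over GFP the fitted log2 fold change was 1.52 ± 0.78 (edgeR's adjusted p = 0.736) and 0.38 ± 0.74 without YFP replicate 5. Fabp5 has near-identical processed pseudogenes in the mouse, so its count is uncertain where reads could fit several copies. Adipocyte markers were close to 0 in these libraries, with a mean log2(CPM + 1) over 8 genes of 0.00 to 0.51 in YFP, 0.19 to 0.75 in DP, 0.05 to 0.88 in GFP and 0.12 to 0.66 in DN libraries. Adipoq, the defining gene of adipocytes, was at 0 in 10 of the 18 libraries and did not exceed 0.205 CPM in the others.

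Divided by the length of the longest protein-coding transcript, the order of the mean levels in YFP cells was Spp1, Lgals3, Tyrobp, Cd9, Gpnmb, Trem2, Fabp5, Atp6v0d2, Cd5l and Fabp4. On this scale Spp1 averaged 13833 ± 12026 CPM per kilobase in YFP cells and 6002 ± 4699 in GFP cells (SD, n = 5 and 6). Trem2 averaged 688 ± 783 CPM per kilobase in YFP cells and 360.5 ± 196 in GFP cells. Fabp4 averaged 71.3 ± 87.6 CPM per kilobase in YFP cells and 14.3 ± 14.5 in GFP cells. The SD within YFP cells was close to or above the mean for each of these 3 genes. The YFP means per kilobase without YFP replicate 5 were 9007 ± 6130 for Spp1, 345 ± 192 for Trem2 and 32.6 ± 14.8 for Fabp4 (SD, n = 4). By mean level YFP was first for 7 genes and DP for Tyrobp, Cd9 and Fabp4. With that library left out YFP was first for 6, and GFP was first for Trem2. With edgeR no neighbouring subsets in these orders differed past the threshold. DESeq2 called 1 such pair, Gpnmb in YFP over GFP, and gave no p for Tyrobp.

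For YFP against GFP cells, all 10 members had a fitted log2 fold change above 0, as did 51.7% of all tested genes. The members' median was 1.45 and that of all genes 0.04. None of the members and 0.0% of all genes passed the adjusted threshold with edgeR. Atp6v0d2, Cd5l, Gpnmb and Fabp4 had an unadjusted p under 0.05, or 4 of 10, where 6.59% of all genes (1129) did so in that direction. No member separated every YFP library from every GFP library, as 0.251% of all genes did in the same direction. In bulk libraries such as these, fewer cells of a type and less RNA of a gene per cell cannot be told apart.

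These values leaned on YFP replicate 5. Without it, 8 of the 10 fold changes were above 0 and their median was 0.56, and Atp6v0d2, Cd5l and Gpnmb kept an unadjusted p under 0.05, where 4.07% of all genes did so. Without the 5 libraries that went against their labels, the median was 1.63, and Atp6v0d2 passed the threshold at 3.09 ± 0.53 with an adjusted p of 0.019 by edgeR, as did 0.277% of all genes in that direction. DESeq2, an alternative test, called Atp6v0d2 (3.16 ± 0.72, adjusted p = 0.003), Cd5l (2.97 ± 0.74, adjusted p = 0.009) and Gpnmb (2.72 ± 0.76, adjusted p = 0.028), along with 1.04% of all genes higher in YFP. Under total-count scaling the members' median was 0.94 and all 10 fold changes stayed above 0. With the replicate number as a block all 10 were also above 0, and the members' median was 1.15, against 0.07 for all genes. Median-of-ratios scaling gave a members' median of 1.85, but it also moved the median of all genes to 0.20.

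**Figure D2:**
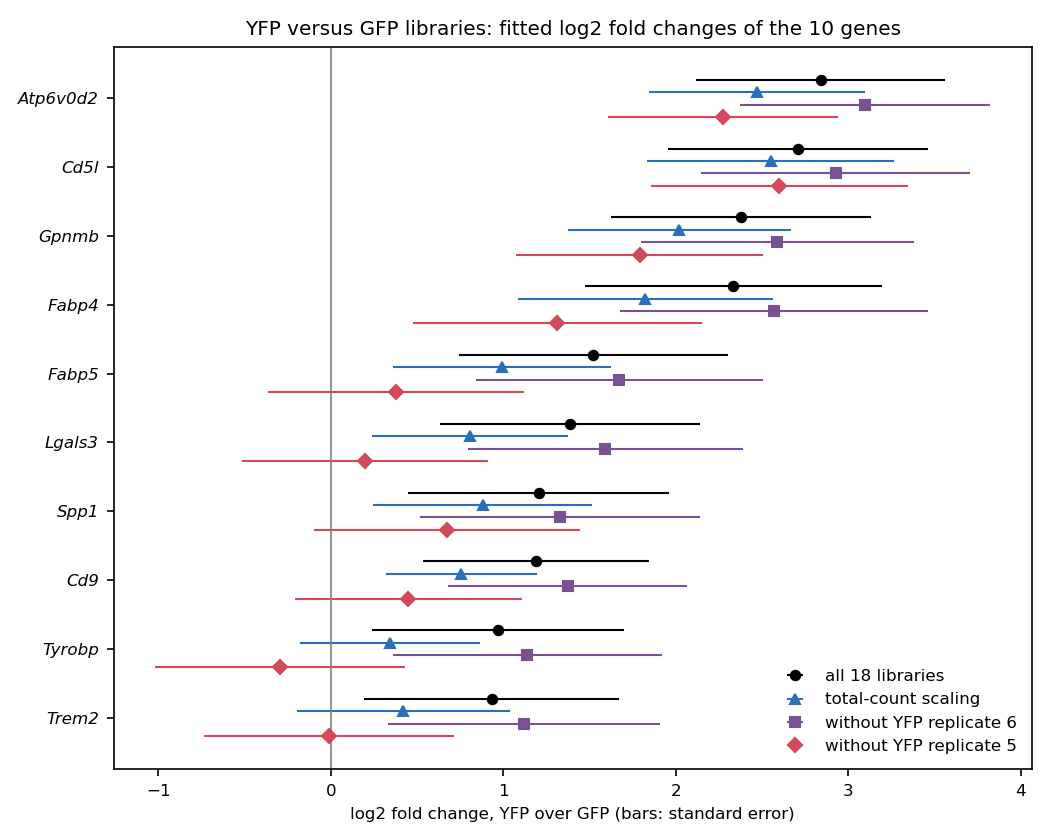
Fitted log2 fold change of YFP over GFP (horizontal axis, with bars of 1 standard error) for the 10 genes, with all 18 libraries, with total-count scaling, without YFP replicate 6 and without YFP replicate 5. Atp6v0d2, Cd5l and Gpnmb stay at 1.79 or more in all 4 fits, and Trem2 and Tyrobp lie at -0.01 and -0.29 without YFP replicate 5.

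Libraries numbered 3 to 6 gave fold changes close to those of all libraries, with a members' median of 1.35 and 0 members called by edgeR. Among libraries numbered 1 and 2 YFP has 1 library, so the values there compare YFP replicate 1 with GFP replicates 1 and 2 and not the subsets. They were 2.82 for Atp6v0d2, 3.98 for Cd5l and 2.67 for Gpnmb on the log2 scale, against -0.36 for Trem2, -1.07 for Tyrobp and -0.041 for Lgals3.

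Markers of other cell types that a CD45+ gate can carry over also had fitted differences between YFP and GFP cells, and none of them was called by edgeR. All 10 fibroblast markers were higher in YFP than in GFP cells at an unadjusted p under 0.05, where 6.59% of all genes were. The markers' median log2 fold change was 2.76 and 0 were called. Their mean log2(CPM + 1) was 4.58 to 9.0 in YFP, 6.12 to 9.09 in DP, 3.56 to 5.71 in GFP and 6.66 to 7.41 in DN libraries, and none of the 10 was at 0 in any library. Within YFP cells this level was lowest, at 4.58, in replicate 5, the library with the highest levels of 9 members (6 with total-count scaling). Markers of platelets and red cells (8 of 8 tested higher, median 2.75), of B cells (6 of 6, median 3.39), of endothelium (7 of 8, median 1.87) and of cDC1 dendritic cells (8 of 8, median 1.55) were also higher by fitted value. By the same measure 51.7% of all genes were higher. The platelet and red cell level was 1.26 to 2.97 in YFP and 1.21 to 1.63 in GFP libraries, and 9 of its 10 genes were at 0 in at least 1 library. For B cells it was 1.26 to 5.08 in YFP and 0.64 to 1.98 in GFP libraries, with 4 of 6 genes at 0 in at least 1 library. The high end is YFP replicate 1, and the other 4 YFP libraries lay between 1.26 and 1.95. For endothelium it was 1.72 to 4.53 in YFP and 1.35 to 2.50 in GFP libraries, with 6 of 8 genes at 0 in at least 1 library. Here too the high end is YFP replicate 1, and the other 4 YFP libraries lay between 1.72 and 2.57. For cDC1 it was 3.55 to 5.86 in YFP and 3.47 to 3.94 in GFP libraries, with 2 of 8 genes at 0 in at least 1 library. T and NK cell markers went the other way, with 6 of 8 lower in YFP, a median of -1.95, and a level of 1.06 to 2.66 in YFP and 0.66 to 4.76 in GFP libraries, and 5 of the 8 were at 0 in at least 1 library. Median log2 fold changes were 0.95 for 10 neutrophil markers, 0.31 for 8 smooth muscle markers, -0.63 for 8 markers of resident vascular macrophages and -0.51 for 14 genes of tissue dissociation. Their part in the members' differences was not tested.

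Pan-macrophage markers, a list of 12 genes that includes Cd68, Csf1r and the C1q chains, had a median log2 fold change of 0.09 between YFP and GFP cells, with 6 higher and 6 lower and 0 called. The median without YFP replicate 5 was -0.48, with 2 higher and 10 lower. Their mean log2(CPM + 1) was 8.56 to 11.52 in YFP, 8.69 to 10.21 in DP, 9.85 to 10.79 in GFP and 6.17 to 10.75 in DN libraries. YFP replicate 5 was highest and DN replicate 1 was lowest, as for most members. Each member was therefore also expressed relative to these markers, as its log2(CPM + 1) minus their mean in the same library.

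On this relative scale all 10 members were higher in YFP than in GFP cells, with a median difference of 1.41, where 62.6% of all other genes were higher, with a median of 0.15. Without YFP replicate 5 all 10 remained higher and the median was 1.24. The share of other genes was not computed for that set. The markers' own median log2 fold change was then -0.48, which raises values on this scale. Gpnmb, Atp6v0d2 and Cd9 were higher in every YFP library than in every GFP library, which was so for 0.916% of all other genes. Relative Gpnmb was 1.87, 1.02, 2.20, 2.0 and 0.82 in YFP libraries and ran from -2.04 to 0.59 in GFP libraries. Relative Atp6v0d2 was -0.76, -1.94, -0.87, -1.17 and -3.14 in YFP libraries and ran from -4.89 to -3.47 in GFP libraries. The lowest of these YFP values, that of replicate 6, rests on 37 counts, and DN replicate 6 was above it, at -2.84. Relative Cd9 ran from 0.00 to 0.95 in YFP libraries and from -1.08 to -0.06 in GFP libraries, so the ranges nearly touched. Its mean was 0.46 ± 0.40 in YFP, 0.86 ± 1.45 in DP and 0.41 ± 0.82 in DN libraries (SD, n = 5, 4 and 3). DP replicates 4 and 5 and DN replicate 1, at 1.58, 2.54 and 1.32, were above every YFP library.

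Trem2 and Tyrobp differed least on the relative scale. Trem2 averaged -1.18 ± 0.51 in YFP and -1.86 ± 0.45 in GFP cells, and Tyrobp averaged -0.15 ± 0.66 in YFP and -0.65 ± 0.41 in GFP cells (SD, n = 5 and 6). Cd5l had the largest difference, 3.07, but its range overlapped because GFP replicate 6, at -3.92, was above YFP replicates 3 and 6. With Cd68 alone in place of the list the members' median difference was 0.94, and with C1qa, C1qb and C1qc alone it was 1.20. Relative to Cd68 the difference of Tyrobp was 0.02, and it was -0.17 without YFP replicate 5.

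**Figure D3:**
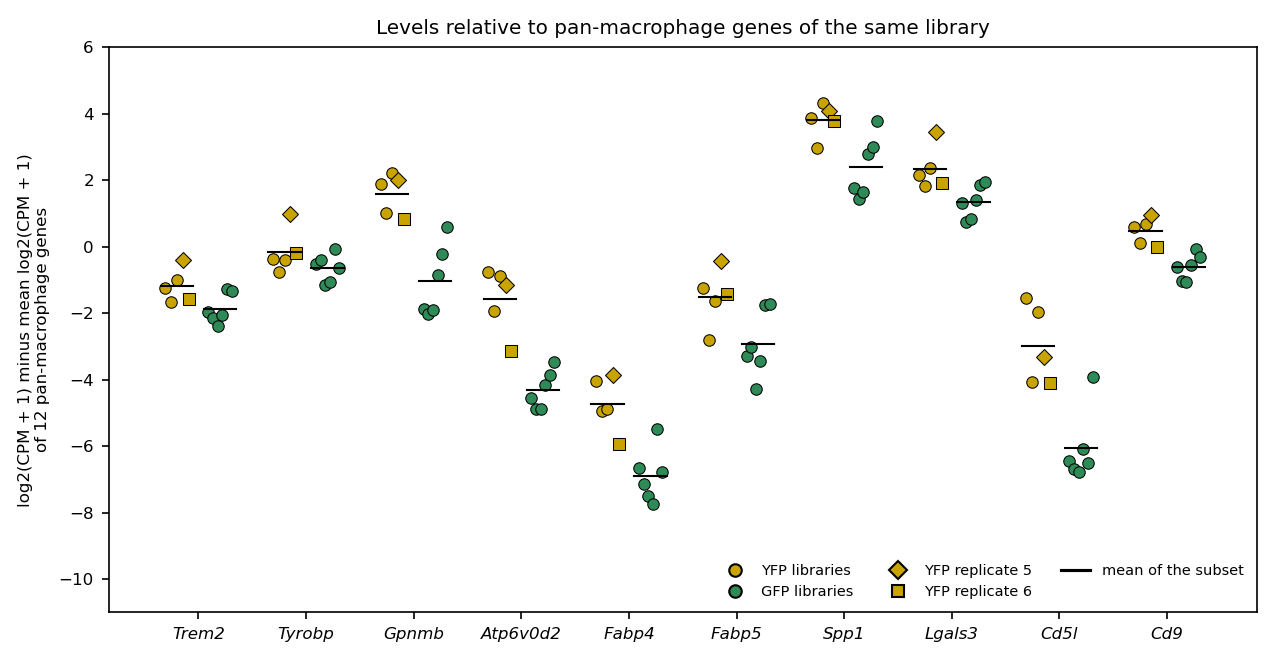
Level of each gene relative to the 12 pan-macrophage genes of the same library (vertical axis, difference in log2(CPM + 1)) in YFP libraries, left of each pair, and GFP libraries, right, with lines at the subset means. The YFP points of Gpnmb, Atp6v0d2 and Cd9 lie above all GFP points, and those of Trem2 and Tyrobp overlap with GFP points.

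Against DP cells, the YFP libraries showed 3 of the 10 members without overlap, where 0.367% of all genes were without overlap in that direction. These were Gpnmb, Cd5l and Atp6v0d2, the last within the counting error of YFP replicate 6 (37 counts). Their log2 fold changes were 2.82 ± 0.89, 3.14 ± 0.90 and 2.92 ± 0.84, with adjusted p-values of 0.476, 0.392 and 0.398 by edgeR. All 3 had an unadjusted p under 0.05, as did 3.02% of all genes. DESeq2 called the same 3 members, with adjusted p-values of 0.049, 0.022 and 0.025, along with 0.268% of all genes higher in YFP. Of all 10 members 7 had a fold change above 0, as did 45.6% of all genes. The other 7 members had fold changes between -0.45 for Tyrobp and 1.76 for Spp1, and the median of the 10 was 1.50. Without YFP replicate 5 that median was -0.23, and the median of all genes was -0.31. In that fit Cd5l was at 2.55, Atp6v0d2 at 1.92 and Gpnmb at 1.75.

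Between DP and GFP cells the members were split by direction. 4 of 10 fold changes were above 0, where 59.4% of all genes were, and the members' median was -0.12 against 0.20 for all genes. With the replicate number as a block 9 of 10 were above 0 and the members' median was 0.37, against 0.07 for all genes, and with median-of-ratios scaling 7 of 10 were above 0, with a median of 0.18 against 0.38 for all genes. Without YFP replicate 1, 3, 4 or 5, none of which is in this comparison, all 10 were above 0. In each of these fits the members' median was 0.42, but the median of all genes was then 0.48. None of the 10 was among the 34 genes that edgeR called higher in DP (0.198% of all genes), and edgeR called 0 genes once the replicate number was a block. Fabp4 had the largest fitted value, 2.56 ± 0.90 (edgeR's adjusted p = 0.347), and was the only member with an unadjusted p under 0.05, where 6.66% of all genes were. DESeq2 called Fabp4 at 2.96 ± 0.90 with an adjusted p of 0.039, along with 2.09% of all genes higher in DP. Tyrobp and Cd9 had 1.42 ± 0.77 and 1.41 ± 0.69.

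The Tyrobp and Cd9 values rested on DP replicate 5, and that of Fabp4 on DP replicates 4 and 5. Both libraries go against their label. Without DP replicate 5 the fold changes were 1.59 for Fabp4, 0.33 for Cd9 and -0.30 for Tyrobp. Without the 5 libraries against their labels they were -0.12, -0.15 and -0.51. Neutrophil markers had a mean log2(CPM + 1) over 10 genes of 9.81 in DP replicate 5 and 2.33 to 5.34 in the other DP libraries, against 1.96 to 4.96 in GFP libraries. Of these 10 markers 3 were at 0 in at least 1 of the 18 libraries. In DP over GFP, 9 of the 10 had a fold change above 0, where 59.4% of all genes did. Fibroblast markers reached 9.09 in DP replicate 4, and 2 of these 10 markers were among the called genes, as were 0.198% of all genes. The part of either cell type in the members' values was not tested.

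The DN libraries spanned nearly the whole range of the members. DN replicate 1 held the lowest value of the 18 libraries for 9 members, and DN replicate 6 was above the GFP median for all 10. The members together took 0.133% of the counts in DN replicate 1, 1.08% in DN replicate 3 and 3.83% in DN replicate 6. Their share was 1.49% to 4.95% in YFP libraries, 1.03% to 1.94% in DP libraries and 0.762% to 2.85% in GFP libraries. DN replicate 1 also had the lowest pan-macrophage level, 6.17, and the highest levels of T and NK cell markers (6.55) and of B cell markers (6.77) of all libraries, as means of log2(CPM + 1). The part of these cell types in the members' values was not tested.

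Comparisons with DN cells were accordingly wide. All 10 members had a fold change above 0 in YFP over DN, as did 52.4% of all genes, and Fabp4 did not overlap, as did 0.227% of all genes. Fabp4 had 3.47 ± 1.20, Gpnmb 2.38 ± 0.98 and Atp6v0d2 2.18 ± 0.91 on the log2 scale, each with an unadjusted p under 0.05, where 1.92% of all genes had one, and an adjusted p of 1.0 by edgeR. In DP over DN, Fabp4 was at 3.70 ± 1.23 and Cd5l at -2.07 ± 0.92, the only members with an unadjusted p under 0.05, where 2.5% of all genes were higher and 0.21% lower in this way. DESeq2 called Fabp4 in DP over DN, at 4.08 ± 1.07 with an adjusted p of 0.049, along with 0.175% of all genes higher in DP. In GFP over DN the members' median was 0.01 and 0 members had an unadjusted p under 0.05. These 3 comparisons share the DN libraries, and without DN replicate 1 the members' median in YFP over DN was 0.999, against 1.47 with it, that in GFP over DN was -0.59 and that in DP over DN was -0.62. Without DN replicate 6 these medians were 3.06, 1.51 and 1.48, so the sign of the GFP over DN and DP over DN medians turned with the DN library left out.

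The interaction asks whether the difference that goes with YFP is unequal in cells with and without GFP, as (DP minus GFP) minus (YFP minus DN). Gpnmb had the largest value, -2.82 ± 1.25 on the log2 scale, with an unadjusted p under 0.05 as for 3.3% of all genes in either direction, and an adjusted p of 1.0 by edgeR. In GFP-positive cells its fold change with YFP was -0.45, and in GFP-negative cells it was 2.38. The members' median was -1.39. It was 0.01 without YFP replicate 5, -3.03 without DN replicate 6 and -7.08 without the 5 libraries against their labels, where DN is replicate 1 alone.

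Across the 18 libraries the 10 genes varied together, with Spearman's rho between 0.38 and 0.96 over the 45 pairs and a median of 0.74. The median was 0.69 without YFP replicate 5. These libraries share depth, subset and cell composition, so the values describe this set only. Trem2 was closest to Lgals3 (0.96) and then to Tyrobp (0.87). Gpnmb, Atp6v0d2 and Cd5l formed a tight group, with 0.91 for Gpnmb and Atp6v0d2, 0.92 for Cd5l and Atp6v0d2, and 0.86 for Gpnmb and Cd5l. Without YFP replicate 5 these 3 values were 0.89, 0.91 and 0.84. The lowest pair was Tyrobp and Cd5l, at 0.38, and Fabp4 was the member with the lowest median rho to the others, 0.56.

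**Figure D4:**
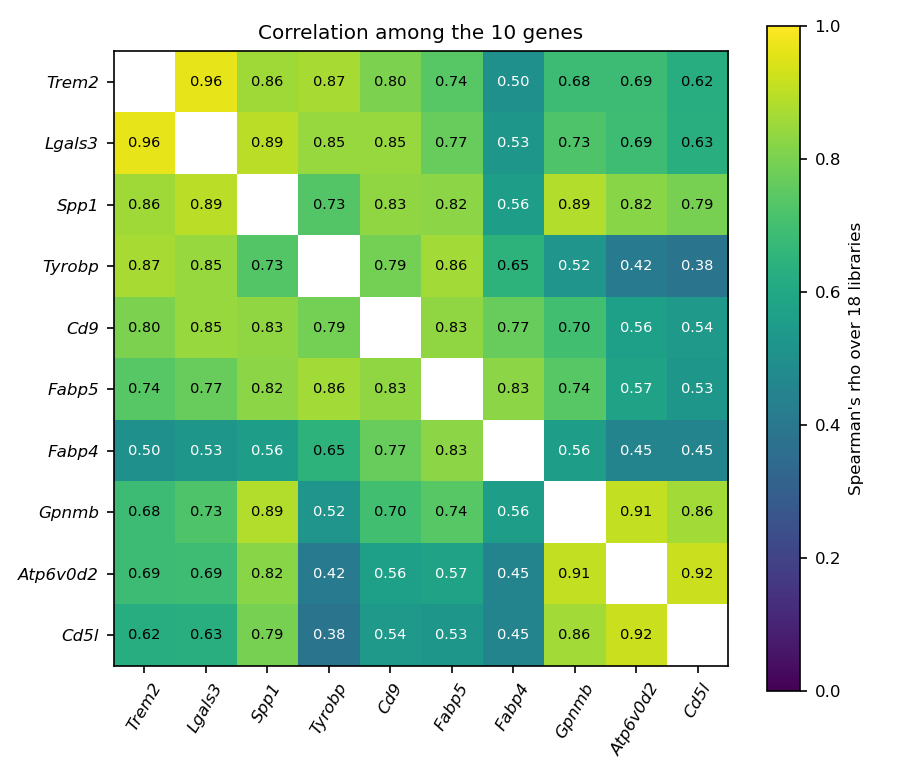
Spearman's rho of each pair of the 10 genes over the 18 libraries, by colour and number, with both axes in the same order of genes. The block of Gpnmb, Atp6v0d2 and Cd5l at the lower right has values of 0.86 to 0.92, and their values with Tyrobp are 0.38 to 0.52.

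Of the 15243 other genes ranked by their mean rho with the members, Pgam1, a glycolytic enzyme gene, was closest, at 0.83. Tspan17, Cd63, Pqlc3 and Rhoc followed at 0.81 each, and the median of all ranked genes was -0.21. Cd63, a tetraspanin of lysosomes and vesicles, averaged 2122 ± 2318 CPM in YFP, 1169 ± 1069 CPM in DP, 900.3 ± 473 CPM in GFP and 779.7 ± 783 CPM in DN libraries (SD, n = 5, 4, 6 and 3). Without YFP replicate 5, the same 5 genes held the first 5 ranks. Without YFP replicate 6 Pqlc3 was at rank 8, and without both Cd63 and Pqlc3 were at ranks 7 and 9.

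Promoter windows of 6 of the 10 members were matched in the RefSeq promoter table (build GRCm38.p6), 7 windows in all since Spp1 has 2. Trem2, Gpnmb, Spp1, Cd5l, Cd9 and Lgals3 had one, and Tyrobp, Fabp4, Fabp5 and Atp6v0d2 were not matched. The stretch before the start is printed for Gpnmb and Cd5l, of the group with the largest YFP differences, and for Trem2 and Spp1, whose windows held motifs searched. Each runs 5′ to 3′ on the gene's strand, here plus for all 4, and capitals mark a motif match.
Gpnmb, chr6:49036268-49036517: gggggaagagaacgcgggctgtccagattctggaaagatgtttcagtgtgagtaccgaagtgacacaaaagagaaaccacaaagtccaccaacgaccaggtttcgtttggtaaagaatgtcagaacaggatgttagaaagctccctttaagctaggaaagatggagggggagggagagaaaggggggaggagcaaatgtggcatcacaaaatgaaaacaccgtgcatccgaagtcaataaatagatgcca
Cd5l, chr3:87357631-87357880: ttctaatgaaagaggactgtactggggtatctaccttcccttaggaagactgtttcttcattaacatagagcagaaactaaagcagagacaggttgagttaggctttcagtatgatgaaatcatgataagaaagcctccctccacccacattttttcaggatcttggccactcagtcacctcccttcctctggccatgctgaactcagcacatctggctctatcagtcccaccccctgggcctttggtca
Trem2, chr17:48346151-48346400: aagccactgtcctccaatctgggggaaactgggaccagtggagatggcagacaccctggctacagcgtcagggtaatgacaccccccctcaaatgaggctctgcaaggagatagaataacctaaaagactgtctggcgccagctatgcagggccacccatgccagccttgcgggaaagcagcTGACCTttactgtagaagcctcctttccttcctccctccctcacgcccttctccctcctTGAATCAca
Spp1, chr5:104434861-104435110: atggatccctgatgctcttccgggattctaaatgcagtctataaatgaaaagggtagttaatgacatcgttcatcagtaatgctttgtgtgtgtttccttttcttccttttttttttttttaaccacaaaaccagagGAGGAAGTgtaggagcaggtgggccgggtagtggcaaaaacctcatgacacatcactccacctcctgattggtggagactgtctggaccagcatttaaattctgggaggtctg

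5 short motifs were searched as exact letters on both strands of the whole windows, and no 2 matches overlapped. The AP-1 site TGANTCA, bound by Fos and Jun proteins, was in 2 of the 7 windows, those of Trem2 and Gpnmb, and in 7.81% of all 32851 windows of the table. In Trem2 it starts at position -9 from the start of the transcript, and in Gpnmb it lies after the start, at position 9, outside the stretch printed. The PU.1 core GAGGAAGT was in the first Spp1 window, at position -113, and in 3.2% of all windows. The nuclear receptor element AGGTCA was in the Trem2 window on the minus strand (printed as TGACCT) and in 16.3% of all windows. The E-box CACGTG was in none of the 7 windows and in 7.15% of all, and the related CATGTG was in the Cd9 window alone and in 14.2% of all. These matches describe letters in the windows, and no binding was measured.

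Other genes of the foamy and lipid-associated state were mostly higher in YFP than in GFP cells by fitted value. Of 25 further genes of this kind, 21 were higher and 4 lower in YFP than in GFP cells, where 51.7% of all genes were higher. The median log2 fold change of the 25 was 0.58. An unadjusted p under 0.05 was found for 5 of them, all higher, where 6.59% of all genes had one in that direction. None of the 25 passed the adjusted threshold. They include Itgax, the gene of Cd11c, whose direction is not independent of a sort by the Cd11cYFP reporter. Cd68 is also among them and is a pan-macrophage marker as well. When YFP replicate 5 was left out, 14 were higher and 11 lower, with a median of 0.07. The lysosomal protease gene Ctsl averaged 2952 ± 3251 CPM in YFP and 591 ± 374 CPM in GFP libraries, with a log2 fold change of 2.32 ± 0.68 and an adjusted p of 0.308 by edgeR. The macrophage elastase gene Mmp12 was at 2.60 ± 0.80, and Lpl, the gene of lipoprotein lipase, was at 2.17 ± 0.68. In the 4 YFP libraries other than replicate 5 Ctsl averaged 1571 ± 1175 CPM (SD, n = 4), and the fold changes without that library were 1.51 ± 0.62 for Ctsl, 2.15 ± 0.82 for Mmp12 and 1.54 ± 0.63 for Lpl.

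Genes that act with TREM2 itself were split by direction in YFP over GFP with all libraries, by fitted value. Of 14 genes of its ligands, signalling and shedding, 5 were higher and 9 lower in YFP than in GFP cells, where 51.7% of all genes were higher. The median log2 fold change of the 14 was -0.33. Without YFP replicate 5, 1 was higher and 13 were lower, with a median of -0.30. The 14 include Apoe, which is inactivated in these mice, at 0.64 with all libraries and -0.73 without YFP replicate 5. Clu, the gene of the lipoprotein clusterin, a TREM2 ligand, had 2.01 ± 0.68, and Inpp5d, the gene of the inhibitory phosphatase SHIP1, had -0.67 ± 0.42 (edgeR's adjusted p = 0.468 and 0.856). Of the 5 other TREM family genes 2 were higher and 3 lower. Treml1, a gene of platelets, had 4.29 ± 1.15 and a mean of 7.08 ± 6.13 CPM in YFP cells, and 3.44 ± 1.22 without YFP replicate 5. Treml4 and Trem3 were at -2.09 ± 0.71 and -2.43 ± 1.02. These 3 genes had an unadjusted p under 0.05, and none was called. Of all 17143 genes, 1129 had such a p in the higher and 74 in the lower direction. Of the other fatty acid-binding proteins only Fabp3 passed the filter on low counts, of 5 examined, and its fold change was 1.68 ± 0.81, or 0.58 ± 0.78 without YFP replicate 5. Fabp1, Fabp2, Fabp6 and Fabp7 stayed under 1 CPM in every library.

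Other subunits of the V-ATPase, to which the Atp6v0d2 product belongs, included none that edgeR called. Of 15 such genes tested, 12 were higher and 3 lower in YFP than in GFP cells, where 51.7% of all genes were higher. The median log2 fold change of the 15 was 0.39, and Atp6v0e had the smallest p, at 1.51 ± 0.73 (edgeR's adjusted p = 0.706). The median without YFP replicate 5 was 0.04, and Atp6v0e was at 0.13 ± 0.67. Osteoclasts also use Atp6v0d2, and of 8 osteoclast markers tested 5 were higher and 3 lower in YFP cells, with a median of 0.57, or 0.82 with 6 higher and 2 lower without YFP replicate 5. Ctsk, the gene of the collagen-degrading protease cathepsin K, averaged 841 ± 702 CPM in YFP and 74.1 ± 55.0 CPM in GFP libraries, a log2 fold change of 3.51 ± 0.69 with an adjusted p of 0.075 by edgeR. Its fold change was 3.13 ± 0.65 without YFP replicate 5, with an adjusted p of 0.230 by edgeR. Acp5, the gene of the tartrate-resistant phosphatase, had 1.62 ± 0.56, and 0.81 ± 0.42 without that library. Calcr, the calcitonin receptor gene and a defining marker of osteoclasts, was at 0 in 9 of the 18 libraries. Its highest value, 14.9 CPM, was that of the shallow YFP replicate 6, and no other library exceeded 0.956 CPM.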

How the data were processed

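Live CD45+ cells of digested aortas and carotid arteries were sorted by reporter into Trizol, and their RNA was made into libraries by SMART-seq v4 (11 amplification cycles) and Nextera XT, per the labels' protocols. TopHat 1.4.1, SAMtools, HTSeq 0.7.1 and mm10 were used, per the submitters' processing notes. The sources used here name neither the annotation nor the strand setting. Counts of genes that overlap, or lie antisense to each other, may therefore be mixed. The authors deposited whole-number gene counts, not normalized, which were used as they stood. Reads carry no molecular identifiers.

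All 18 libraries were fitted together with edgeR 4.0.16 in R 4.3.3 (filterByExpr, TMM, robust quasi-likelihood test, 1 mean per subset, common dispersion 0.890), with p-values adjusted by Benjamini-Hochberg over 17143 genes and a threshold of 0.05. CPM values are counts over TMM-scaled library sizes, and the pseudocount on the log scale was 1. Alternatives were other scalings, no filter, the replicate block, DESeq2 1.42.0, and fits without single libraries, without the 5 libraries against their labels, without YFP replicates 5 and 6, or within numbers 1 and 2 or 3 to 6. Total-count scaling and the fit without YFP replicates 5 and 6 were added after the data were seen, as were the values of the other lists without YFP replicate 5. Correlations and relative levels were described without a test. Libraries of a subset were compared pairwise and each differed beyond sampling noise (lowest chi-square per degree of freedom 16.7).

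The members and all lists were chosen with earlier results of these data known, so a list's direction is no independent evidence. Named genes were the members, Cx3cr1, Itgax, Apoe, at most 3 genes per list with the smallest p in YFP versus GFP, and the 5 genes most like the members. Of 185 list entries, 184 matched the table, and Trac did not. Coordinates are from GENCODE vM21 (mm10).

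Deviations from subset means of same-numbered libraries correlated above 0.1 in all pairs for DP and GFP (0.23, 0.31, 0.16 and 0.42), YFP and DP (0.16, 0.17 and 0.34) and GFP and DN (0.57, 0.59 and 0.67). This was not so for the other combinations. Number 6 gave -0.02 for YFP and GFP and -0.09 for YFP and DN, and number 1 gave -0.22 for DP and DN. Some differently numbered pairs were as high, such as DP replicate 1 with YFP replicate 3 (0.39) and GFP replicate 2 with DN replicate 1 (0.61). Over all pairs the median was 0.41 with the same number and -0.08 with different numbers. This check thus does not settle whether the numbers pair the libraries. The labels do not state a pairing, and numbers 1 and 2 differ from 3 to 6 in detected genes. The edgeR test was tested on simulated data for YFP versus GFP with 15921 genes, 50 changed at each size. It called 0 of 50 genes changed 2-fold, 17 changed 4-fold, 42 changed 8-fold and 47 changed 16-fold, with 3 false calls. The changed genes were drawn from the better expressed genes only. Simulated counts were drawn independently, with no outlying or mislabelled library, so these numbers may not hold for low members such as Fabp4.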

Additional observations from a re-analysis of the deposited data

Results flagged for a closer look

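Single libraries stood apart from the rest of their subset for 8 of the 10 genes. The gap between an end library and its neighbour, relative to the subset's whole range of CPM, was examined in 30 sets of a gene and a subset of 4 to 6 libraries. It was larger than Dixon's 95% limit in 11. About 1.5 would be flagged by chance in independent, normally distributed sets. The genes vary together and the same libraries recur, so that number is no measure of chance here. With total-count scaling in place of TMM the gap was larger than the limit in 4 of the 30, all among the 11. These were YFP replicate 5 and DP replicate 5 for Tyrobp (2563 and 4039 CPM on that scale), GFP replicate 5 for Fabp4 (33.4 CPM) and GFP replicate 6 for Cd5l (87.6 CPM). The other 7 depend on the scaling. With TMM, YFP replicate 5 was far above the other YFP libraries for Trem2 (2238 CPM), Tyrobp (5764 CPM), Fabp4 (203 CPM), Fabp5 (2170.2 CPM) and Lgals3 (31804 CPM). For Gpnmb, Atp6v0d2 and Cd5l, the genes with the largest YFP over GFP differences, no YFP library was flagged. DP replicate 5 was far above the other DP libraries with TMM for Tyrobp (7584 CPM), Spp1 (10907 CPM) and Cd9 (6913 CPM), while with total-count scaling Spp1 had 5809 CPM there and 5345 to 5760.1 CPM in the others. Among GFP libraries, replicate 5 stood out for Tyrobp (1680.3 CPM) and Fabp4 (38.7 CPM), and replicate 6 for Cd5l (95.2 CPM).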

How the results depend on the processing

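Limits are the few libraries, the shallow YFP replicate 6 and the 5 libraries against their labels, whose removal leaves DN with 1 library, assumed to vary like the others. In the simulation 4-fold changes were called in 17 of 50 better expressed genes.

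Genes called (members in brackets) numbered 0 (0) in YFP versus GFP, 9 genes without the filter, 55 (1) without the 5 libraries, 1438 (3) in numbers 1 and 2 and 186 (3) with DESeq2, and 0 to 11 with 1 library left out, the non-zero counts being without YFP replicates 1 (5), 3 (8) and 6 (11). DP versus GFP had 34 (0), with 92 by median-of-ratios scaling, 0 with total-count scaling, 62 without the filter, 0 with the replicate block, 0 without the 5 libraries, 87 without YFP replicates 5 and 6, 244 (2) in numbers 1 and 2, 188 in numbers 3 to 6, 362 (1) with DESeq2 and 0 to 252 with 1 library left out. It was 0 without any 1 GFP library or DP replicate 4 or 5, 106 to 252 without DP replicate 1 or 2, YFP replicate 1, 3, 4 or 5 or DN replicate 3, 21 without YFP replicate 6 and 16 without DN replicate 6. With the block edgeR called 0 members, as without it. YFP versus DP had 0 (0), against 1496 (2) in numbers 1 and 2, 9 in numbers 3 to 6 and 133 (3) with DESeq2. In numbers 1 and 2, GFP versus DN had 2296 (8), YFP versus DN 1807 (8), DP versus DN 2584 (9) and the interaction 680 (7). With DESeq2, YFP versus DN had 12, DP versus DN 30 (1) and the interaction 12. YFP versus DN had 1 without the 5 libraries, and DP versus DN had 1 in numbers 3 to 6. These 4 comparisons had 0 (0) with all libraries and with any 1 left out. In numbers 1 and 2, YFP and DN have 1 library each.

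Fold changes (log2) that changed sign, for YFP over GFP, were Trem2 (-0.0098 to 1.62 with 1 library left out, -0.0024 without YFP replicates 5 and 6, -0.36 in numbers 1 and 2), Tyrobp (-0.29 to 1.68, -0.42 and -1.07) and Lgals3 (-0.041 in numbers 1 and 2). For DP over GFP, without the 5 libraries, they were Fabp4 (-0.12), Cd9 (-0.15) and Tyrobp (-0.51, with -0.10 in numbers 1 and 2 and -0.30 to 2.36 with 1 library left out). The members' median ran from -0.23 to 2.33 in YFP over DP, from -0.59 to 1.51 in GFP over DN, from -0.62 to 1.48 in DP over DN and from -3.03 to 0.012 in the interaction with 1 library left out, and the interaction's was -7.08 without the 5 libraries. The cause was not tested. Gpnmb, Atp6v0d2 and Cd5l kept their sign in YFP over GFP in every setting run.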
